A study of Mus musculus with 6 samples.

Results

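This account concerns 9 genes of the transforming growth factor beta (TGF-beta) pathway, namely Tgfb1, Tgfbr1, Tgfbr2, Smad2, Smad3, Smad4, Smad7, Ski and Skil. They were chosen by gene symbol, and all 9 were found among the 13883 genes of the deposited table. RNA was sequenced from CD8 T cells of wild-type mice, taken from spleen and lymph nodes and stimulated with antibodies to CD3 and CD28. One group of 3 samples was kept overnight in 20 mM NaCl and served as control, and the other group of 3 samples was kept overnight in 20 mM DAHB, an agent whose name the labels do not spell out. Each sample held 100000 cells. The mRNA levels of the 9 genes were compared between DAHB and NaCl, in a study whose title concerns mitochondrial ATP production, chromatin accessibility and T cell differentiation. No label says that replicates are separate mice or cultures, so p-values measure no more than the spread between these 6 libraries, and that spread may be technical. In bulk RNA, fewer cells of a kind and less RNA per cell cannot be told apart.

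TGF-beta is a secreted cytokine that restrains T cell activation and that also sets up the residence of CD8 T cells in epithelial tissues. The ligand assembles a complex of the type II receptor, encoded by Tgfbr2, and the type I receptor, encoded by Tgfbr1, and the type I receptor phosphorylates the receptor-regulated SMAD proteins encoded by Smad2 and Smad3. These join the common partner SMAD4, enter the nucleus and bind DNA at sites with the core letters AGAC (GTCT on the other strand). SMAD7 is an inhibitor that SMAD3 itself induces, and the proteins SKI and SnoN (the product of Skil) are co-repressors that hold SMAD complexes inactive until they are degraded.

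With DAHB, 3 of the 9 genes rose (Smad3, Tgfbr2 and Smad7), 2 fell (Smad4 and Skil) and 4 did not pass the test (Tgfb1, Tgfbr1, Smad2 and Ski). A gene was called changed at an adjusted p under 0.05 by limma-trend on log2(normalised count + 1), with Benjamini-Hochberg adjustment over all 13804 genes tested. Of all genes tested 29.4% rose and 29.1% fell, or 58.5% in both directions, so that 5 called of 9 is near the background. The median absolute log2 fold change was 0.27 for the 9 genes and 0.30 for all genes tested. The type II receptor gene rose and the type I receptor gene did not pass, and Smad3 rose while its close relative Smad2 did not pass. Under quantile normalisation 5 of the 9 rose, the additions being Tgfb1 and Ski, and the same number fell.

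The promoters of the pair of genes with the largest rises and, for contrast, of the type I receptor gene are shown as the 250 bases before the transcription start, 5′ to 3′, with the AGAC core of a SMAD site or its reverse GTCT in capitals. They come from RefSeq on GRCm38.p6, in which 5 of the 9 genes were matched. Smad2, Smad4, Smad7 and Skil were not, so called genes are among those without a window. The Tgfbr2 window is chr9:116175364-116175613 on the minus strand, that of Smad3 is chr9:63757995-63758244 on the minus strand and that of Tgfbr1 is chr4:47352972-47353221 on the plus strand.
Tgfbr2: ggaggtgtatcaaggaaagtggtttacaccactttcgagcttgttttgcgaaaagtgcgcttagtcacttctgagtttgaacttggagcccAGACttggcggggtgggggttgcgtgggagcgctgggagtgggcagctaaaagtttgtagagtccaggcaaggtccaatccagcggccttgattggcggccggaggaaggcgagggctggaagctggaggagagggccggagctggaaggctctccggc
Smad3: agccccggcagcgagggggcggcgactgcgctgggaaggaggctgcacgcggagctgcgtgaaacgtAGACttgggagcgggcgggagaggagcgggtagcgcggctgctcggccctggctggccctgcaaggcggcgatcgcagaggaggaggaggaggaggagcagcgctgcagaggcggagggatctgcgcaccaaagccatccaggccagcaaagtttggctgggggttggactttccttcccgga
Tgfbr1: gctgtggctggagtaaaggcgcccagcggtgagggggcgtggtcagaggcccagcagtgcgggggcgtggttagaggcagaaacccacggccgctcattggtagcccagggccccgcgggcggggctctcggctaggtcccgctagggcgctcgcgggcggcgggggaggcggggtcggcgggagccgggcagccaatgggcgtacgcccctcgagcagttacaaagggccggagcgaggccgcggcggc
The core stood once in the Tgfbr2 window, beginning 159 bases before the start, once in the Smad3 window, 183 bases before the start, and nowhere in the Tgfbr1 window shown. Tgfbr1 had 2 windows, of which 1 is shown, while Tgfbr2 and Smad3 had 1 each. Of the other matched members, Tgfb1, which did not pass the test, also held it once and Ski not at all. In Tgfbr2 it was preceded by C, which gives the longer form CAGAC. Of 32851 RefSeq windows of that length 82.9% held AGAC or GTCT and 42.2% held CAGAC or its reverse GTCTG, so these short words are common and the matches are a description only.

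The ligand gene Tgfb1 was the most abundant of the 9 (ENSMUSG00000002603, chromosome 7, 25687002 to 25705077, GRCm38). It encodes TGF-beta 1, the main TGF-beta of lymphocytes. Its normalised read count, that is the read count divided by the size factor of the library, was 12702, 12418 and 12874 in the NaCl libraries and 13149.5, 13115 and 12797 in the DAHB libraries. The highest NaCl library lay above the lowest DAHB library, so the groups overlapped. The log2 fold change was 0.04 (SE 0.040, 95% interval -0.05 to 0.13, adjusted p = 0.419). It passed as higher under quantile normalisation (0.10, adjusted p = 0.0305) and was negative, at -0.026 (adjusted p = 0.549), once GC content and exon length were corrected for.

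Of the receptor genes, Tgfbr2 (ENSMUSG00000032440, chromosome 9, 116084293 to 116175360), which encodes the receptor that binds the ligand first, was at 2814, 2697 and 2711 in the NaCl libraries and at 4438, 4141 and 4087 in the DAHB libraries. Every DAHB library lay above every NaCl library, and DAHB replicate 1 was the highest. The means were 2740.5 ± 63.7 and 4222 ± 189 (SD, n = 3), and the log2 fold change was 0.62 (SE 0.048, adjusted p = 9.28e-08). Tgfbr1 (ENSMUSG00000007613, chromosome 4, 47353222 to 47414931), the gene of the signalling kinase of the complex, was at 752, 732 and 802 with NaCl and at 706, 699 and 695 with DAHB. All 3 DAHB libraries lay below the NaCl libraries, but by less than the spread that the test allows for. The log2 fold change was -0.12 (SE 0.065, 95% interval -0.26 to 0.02, adjusted p = 0.129), and it was -0.029 (adjusted p = 0.721) with GC content and exon length corrected for.

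Among the receptor-regulated SMADs, Smad3 (ENSMUSG00000032402, chromosome 9, 63646767 to 63757994) had the largest change of the 9 genes. It was at 682, 652 and 624 in the NaCl libraries and at 1382, 1288 and 1298 in the DAHB libraries. The groups were far apart, with means of 653 ± 29.1 and 1323 ± 51.5 (SD, n = 3). The log2 fold change was 1.02 (SE 0.063, adjusted p = 1.09e-08), and 10.4% of all genes tested had a larger rise. Smad2 (ENSMUSG00000024563, chromosome 18, 76241580 to 76310963) was at 2083, 2071 and 2053 with NaCl and at 1977, 2003 and 1961 with DAHB. The libraries of each group differed by little, and all DAHB libraries were slightly lower. The log2 fold change of -0.06 did not pass (SE 0.047, 95% interval -0.16 to 0.04, adjusted p = 0.262), and it was 0.021 (adjusted p = 0.710) under quantile normalisation.

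Smad4, the gene of the common partner (ENSMUSG00000024515, chromosome 18, 73639009 to 73703780), fell. It was at 2686, 2866 and 2854 with NaCl and at 2116, 2321 and 2274 with DAHB, with no overlap and with replicate 1 the lowest in each group. The means were 2802 ± 100.4 and 2237 ± 107 (SD, n = 3), and the log2 fold change was -0.33 (SE 0.052, adjusted p = 9.77e-05). In the annotation a processed pseudogene lies on the other strand within the span of Smad4, with 0 bases of exon overlap, and no other of the 9 genes overlaps an annotated gene.

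Of the inhibitors, Smad7 (ENSMUSG00000025880, chromosome 18, 75367529 to 75395935) rose. Its libraries were at 989, 957 and 818 with NaCl and at 1338, 1097 and 1132 with DAHB. The groups did not overlap, and DAHB replicate 1 stood above the other DAHB libraries. Smad7 had the widest spread of the 9 genes, with coefficients of variation of 9.88% and 10.9%. The means were 921 ± 91.0 and 1189 ± 130.1 (SD, n = 3), and the log2 fold change was 0.37 (SE 0.086, adjusted p = 0.00218). It lay between 0.28 and 0.42 when each library was left out in turn, and it was 0.25 (adjusted p = 0.00747) with GC content and exon length corrected for.

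Of the co-repressor genes, Skil (ENSMUSG00000027660, chromosome 3, 31095058 to 31122577) was at 4161, 4217 and 4135 with NaCl and at 3308, 3598 and 3497 with DAHB. All DAHB libraries lay below all NaCl libraries, and the means were 4171 ± 42.0 and 3468 ± 147 (SD, n = 3). The log2 fold change was -0.27 (SE 0.046, adjusted p = 0.000187), and it was -0.15 (adjusted p = 0.0083) with GC content and exon length corrected for and -0.16 (adjusted p = 0.00818) under quantile normalisation. Ski (ENSMUSG00000029050, chromosome 4, 155154075 to 155222592) was at 2876, 3040.4 and 2831 with NaCl and at 3242, 2838 and 2955 with DAHB, and the groups overlapped. Its log2 fold change was 0.05 (SE 0.056, 95% interval -0.07 to 0.16, adjusted p = 0.512). It was -0.0091 without DAHB replicate 1, and Ski passed as higher under quantile normalisation (0.14, adjusted p = 0.0428).

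**Figure D1:**
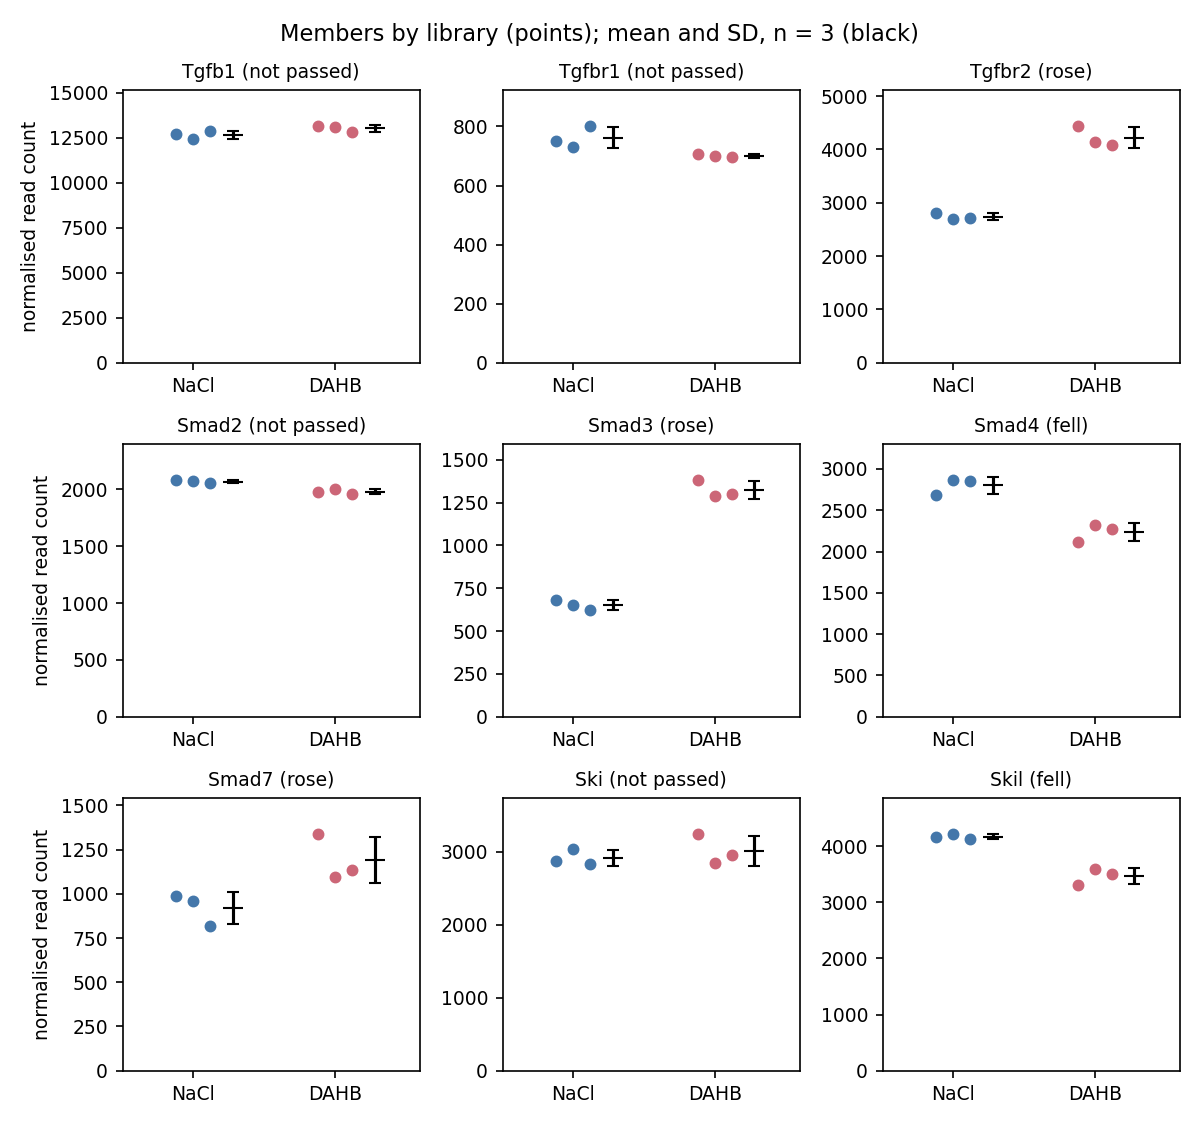
Normalised read count of each of the 9 genes (vertical axis, from 0) in the 3 NaCl and the 3 DAHB libraries (points), with the mean and SD in black. The DAHB points of Tgfbr2, Smad3 and Smad7 lie above the NaCl points, and those of Tgfb1 and Ski overlap with them. Those of Smad4 and Skil lie below the NaCl points, as do those of Tgfbr1 and Smad2, which did not pass the test.

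Levels can be compared between genes only per length, so normalised counts were divided by the summed exon length of each gene in kb. On this scale Tgfb1 was at 2512 ± 45.7 with NaCl and 2582 ± 38.5 with DAHB (SD, n = 3), higher than 94.7% and 95.1% of all genes tested. With NaCl the order below Tgfb1 was Smad4 (755), Ski (524), Skil (430.3), Tgfbr2 (335), Smad2 (236), Smad7 (204), Smad3 (118) and Tgfbr1 (117). Smad3 and Tgfbr1 were the only neighbours in this order whose libraries overlapped. With DAHB the order was Smad4 (603), Ski (542), Tgfbr2 (516), Skil (358), Smad7 (263), Smad3 (239), Smad2 (225) and Tgfbr1 (107). Here the libraries overlapped between Smad4 and Ski, between Ski and Tgfbr2 and between Smad7 and Smad3. Tgfbr2 thus moved above Skil, and Smad3 moved above Smad2 but stayed below Smad7, while Tgfbr1 was last with DAHB as with NaCl. Exon lengths cover all annotated transcripts, so a gene that uses a short transcript is placed too low.

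**Figure D2:**
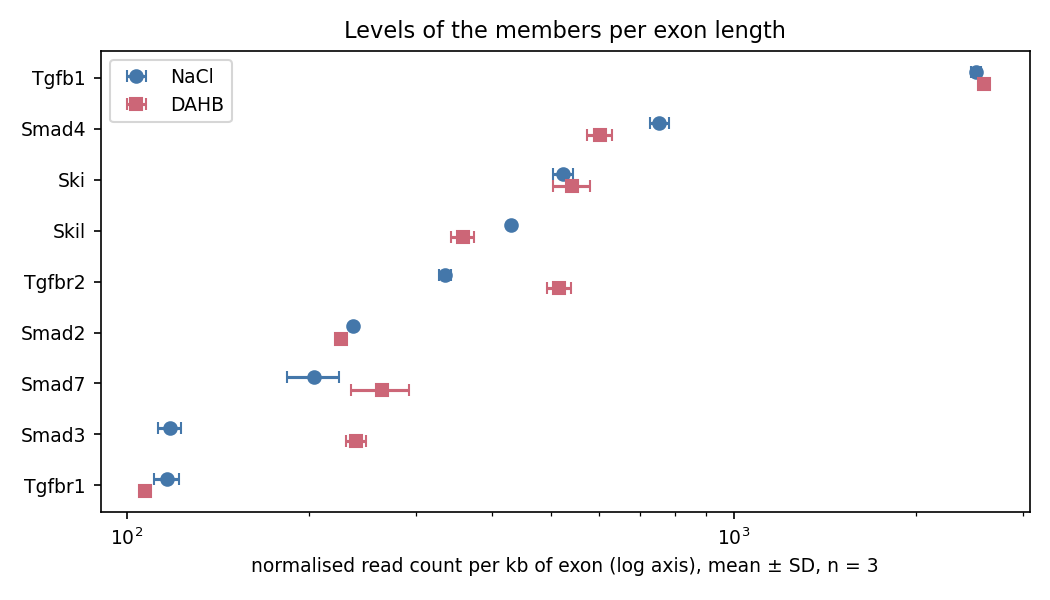
Mean normalised read count per kb of exon (horizontal log axis; bars, SD; n = 3) of the 9 genes with NaCl (circles) and DAHB (squares), ordered by the NaCl level. Tgfb1 stands highest in both groups, and Smad3 moves from 118 to 239, next to Smad2 at 225.

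Ratios between members within a library do not depend on its size factor. The per-kb ratio of Smad3 to Smad2 was 0.519, 0.499 and 0.481 in the NaCl libraries and 1.11, 1.02 and 1.05 in the DAHB libraries. The transcripts of both genes thus stood near equal per length with DAHB, and the difference in the mean log2 ratio was 1.08. The ratio of Tgfbr1 to Tgfbr2 was 0.335, 0.340 and 0.370 with NaCl and 0.199, 0.212 and 0.213 with DAHB, a difference of -0.74 on the log2 scale. The ratio of Skil to Ski was 0.830, 0.796 and 0.838 with NaCl and 0.585, 0.727 and 0.679 with DAHB, a difference of -0.31 on the log2 scale. For each of these 3 ratios the groups did not overlap, and the exact two-sided permutation p was 0.1 (0.133 adjusted over the 4 ratios compared), the smallest that 3 against 3 libraries can give. Ratios were not computed with GC content and exon length corrected for. Under that correction the log2 fold change was -0.15 for Skil and 0.0058 for Ski. The ratio of the inhibitor Smad7 to the sum of Smad2 and Smad3 was 0.607, 0.599 and 0.522 with NaCl and 0.624, 0.527 and 0.548 with DAHB. These groups overlapped, with a difference of -0.03 on the log2 scale (exact permutation p = 1).

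**Figure D3:**
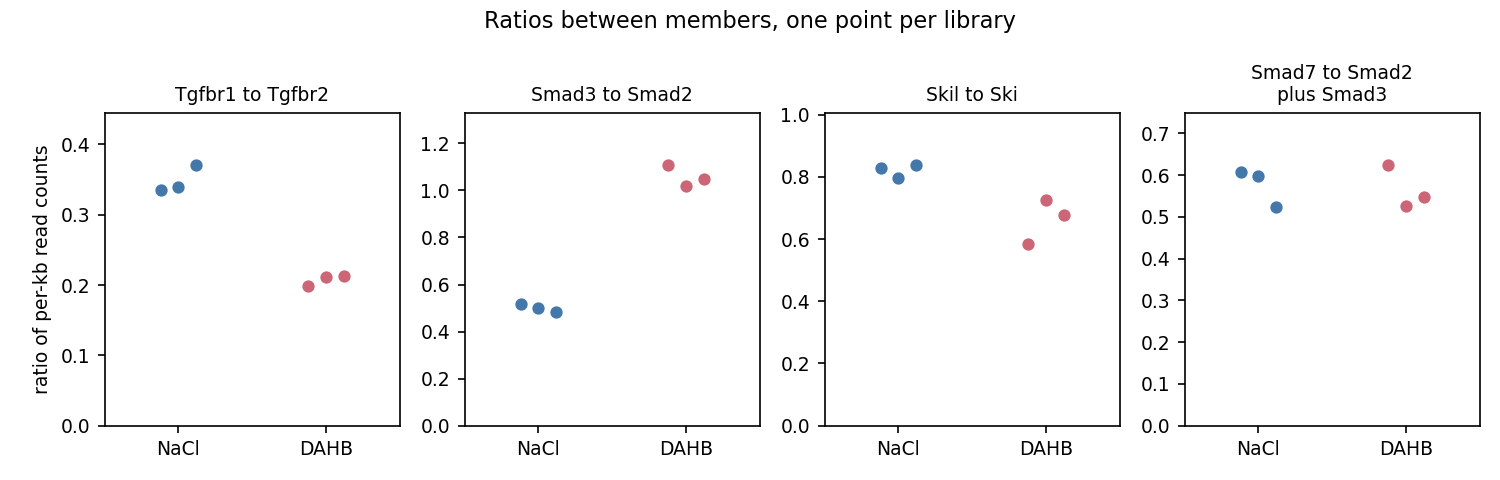
Ratios of per-kb read counts between members (vertical axes, from 0), 1 point per library, for NaCl and DAHB. Smad3 to Smad2 is higher in every DAHB library, Tgfbr1 to Tgfbr2 and Skil to Ski are lower in every DAHB library, and Smad7 to the sum of Smad2 and Smad3 overlaps.

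The genes whose log2 values followed those of a member most closely were sought among the 9868 whose mean normalised count was 100 or more, by the root mean square distance over the 6 libraries after centring each gene. Nearest to Smad3 were the mitochondrial carrier gene Slc25a23 (distance 0.021, log2 fold change 0.99), Rcsd1 (0.034 and 1.06) and Iqgap3, of a scaffold protein family (0.041 and 1.07). Nearest to Smad4, the member with the largest fall, were AI467606 (0.020 and -0.33), Nfe2l2, which encodes the antioxidant regulator NRF2 (0.020 and -0.35), and the chromatin remodeller gene Smarcad1 (0.021 and -0.33). The 6 libraries fall in 2 groups, so genes with a group difference of like size come out near each other. That of Smarcad1 was -0.21 with GC content and exon length corrected for.

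Of 106 further genes of the pathway in 8 lists, 91 were in the table and all of these were tested. In all 35 rose, 28 fell and 28 did not pass, with a median log2 fold change of -0.00 against 0.00 for all genes tested. Over all genes tested 29.4% rose and 29.1% fell, which is the background for this count and for those of the single lists.

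Of 13 genes for further ligands and for the latency and activation of TGF-beta, 6 rose and 4 fell (median log2 fold change 0.13). TGF-beta is secreted in a latent form bound by latent TGF-beta binding proteins. Ltbp3, which encodes one of them, was at 43.9, 53.0 and 41.2 with NaCl and at 664, 607 and 561 with DAHB, and its log2 fold change was 3.71 (SE 0.131, adjusted p = 4.48e-11). Ltbp4 rose from 29.5 ± 1.99 to 121.2 ± 27.6 (SD, n = 3). Bmp7, a ligand of the bone morphogenetic protein (BMP) branch, was at 34.0, 22.1 and 25.6 with NaCl and at 625, 561 and 577 with DAHB, and its log2 fold change was 4.40 (SE 0.16, adjusted p = 5.63e-11). These NaCl levels were low, and every DAHB library stood far above them. Gdf11, an activin-like ligand, rose from 641 ± 56.0 to 1147 ± 124. Named after their values were seen, Furin, whose product cleaves the TGF-beta precursor, rose from 9882 ± 827 to 14480.1 ± 2235, and Lrrc32, which encodes the surface docking protein GARP, fell from 462, 461 and 472 to 308, 274 and 315 over the libraries. Inhba, the gene of an activin subunit and likewise named after its value was seen, was low and fell from 67.8 ± 14.3 to 15.2 ± 2.51. Tgfb2, the gene of another TGF-beta and named in the same way, was at 45.3 ± 16.7 with NaCl and 9.82 ± 2.27 with DAHB. It reached the minimum of 10 counts in 3 libraries only through its NaCl libraries, so its values are a description. Tgfb2 is among the 4 genes of this list counted as lower.

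Of 10 other receptor and co-receptor genes, 5 rose and 2 fell (median log2 fold change 0.29), and 1 fell without NaCl replicate 2, without DAHB replicate 1 or with GC content and exon length corrected for. Acvrl1, which encodes the type I receptor ALK1, was at 15.4, 35.4 and 21.8 with NaCl and at 294, 302 and 305 with DAHB, and its log2 fold change was 3.66 (SE 0.236, adjusted p = 1.63e-08). The groups were far apart from a low start. Tgfbr3, the gene of the co-receptor betaglycan, rose from 562 ± 42.8 to 1333 ± 135 (log2 fold change 1.24, SE 0.081, adjusted p = 1.79e-08) and the activin type I receptor gene Acvr1b by 0.43 on the log2 scale. Bambi, which encodes a decoy receptor, rose from 81.4 ± 10.8 to 137.8 ± 7.44, a call that quantile normalisation ended, at 0.34 on the log2 scale (adjusted p = 0.0564). Of the SMAD genes of the BMP branch, Smad5 fell from 745 ± 60.3 to 486 ± 4.10 and Smad1 from 629 ± 37.3 to 484 ± 40.4, with log2 fold changes of -0.61 and -0.38 and adjusted p-values of 8.70e-06 and 0.00121. These were the 2 of 4 listed genes that the table held, since Smad6 and Smad9 were not among its rows, and a gene that is not listed is not measured here.

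Of 19 genes for adaptors, ubiquitin enzymes and phosphatases that act on the receptors and SMADs, 4 rose and 7 fell (median log2 fold change -0.10). Pmepa1, a TGF-beta target gene whose product holds back receptor-regulated SMADs, was at 959, 994 and 1040 with NaCl and at 1974, 1856 and 1778 with DAHB, and its log2 fold change was 0.90 (SE 0.059, adjusted p = 1.81e-08). Nedd4l, of a ubiquitin ligase that turns over activated SMAD2 and SMAD3, rose from 414 ± 31.3 to 628 ± 2.30. Smurf2, of a ubiquitin ligase that SMAD7 brings to the receptor, fell from 1370 ± 25.2 to 1009 ± 22.6. Usp9x, of a deubiquitinase that acts on SMAD4, fell from 9448 ± 482 to 6130 ± 220.4.

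Of 16 nuclear partner and co-repressor genes, 4 rose and 7 fell (median log2 fold change -0.07), and 4 fell under quantile normalisation, with DESeq2 or without NaCl replicate 2, while 2 rose with a robust prior. Tgif1, which encodes a SMAD co-repressor, had the largest change, from 1571, 1510 and 1533 with NaCl to 668, 655 and 653 with DAHB, and its log2 fold change was -1.22 (SE 0.057, adjusted p = 6.67e-10). The libraries of each group lay close together and far from the other group. The transcription factor gene Runx1 fell from 220.1 ± 37.0 to 141 ± 7.64, by 0.63 on the log2 scale and by 0.95 under quantile normalisation. Foxo1, of a factor that can pair with SMADs, rose from 3103 ± 24.8 to 4321 ± 181. Of 10 genes of the non-SMAD branch, which runs through the kinase TAK1, 1 rose and 4 fell (median log2 fold change -0.10). Mapk14, of the p38 kinase, rose by 0.30 on the log2 scale. Traf6, of a ubiquitin ligase that activates TAK1, fell from 4264 ± 72.2 to 2771 ± 57.7, and Shc1 and Pard6a, of an adaptor and a polarity protein, had log2 fold changes of -0.33 and -0.45, the latter -0.29 without DAHB replicate 3 and -0.70 under quantile normalisation.

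Of 9 genes known to be raised by TGF-beta in T or other cells, 5 rose and 1 fell (median log2 fold change 0.34), and of 12 genes known to be lowered by it in CD8 T cells, 10 rose and 1 fell (median 0.65). Genes of both kinds were thus higher with DAHB. Among the first, Itgae (the integrin CD103), Cd101 and Ccr8 rose by 2.36, 1.36 and 0.67 on the log2 scale. Under quantile normalisation the rises were 1.94, 0.87 and 0.41. Itgae and Cd101 were low with NaCl, at 30.8 ± 8.93 and 41.0 ± 4.04. The cell cycle inhibitor gene Cdkn1b, named after its value was seen, fell from 1139 ± 92.4 to 798 ± 51.5, and 2 of the 9 fell with GC content and exon length corrected for. Among the second, Ifng, Eomes, Prf1 and Gzmb rose by 3.98, 1.75, 1.58 and 1.37 on the log2 scale. The 1 that fell, Klf2, was low, at 66.2 ± 9.64 and 41.9 ± 9.69 (log2 fold change -0.66, adjusted p = 0.0192; -1.14 under quantile normalisation), and lost its call without NaCl replicate 1 or 3 or DAHB replicate 2 or 3 (adjusted p from 0.0556 to 0.0727). S1pr1, one of the 10 that rose, had an adjusted p of 0.04997 and overlapping groups. Myc did not pass, and Myc, S1pr1 and Klf2 were named after their values were seen. Both lists rest on textbook knowledge of other experiments but were chosen with earlier results of these data known, and no TGF-beta was compared here.

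**Figure D4:**
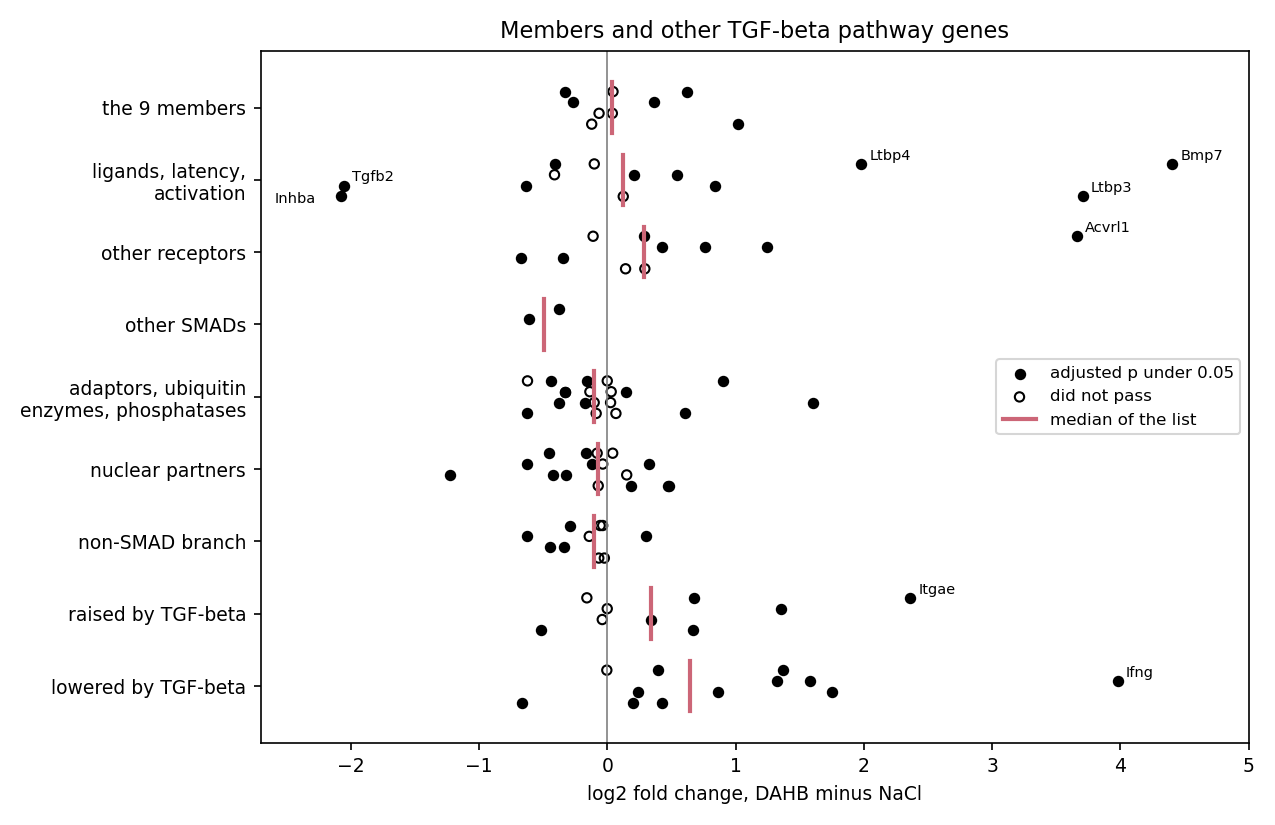
Log2 fold change (DAHB minus NaCl, horizontal axis) of the 9 members and of the genes of 8 pathway lists, 1 point per gene, filled where the adjusted p was under 0.05, with the median of each list as a vertical bar. The 9 members lie between -0.33 and 1.02, whereas Bmp7, Ltbp3 and Acvrl1 lie between 3.66 and 4.40.

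The libraries held 31055613 to 56007582 reads counted in genes, and each member had 590 to 20637 reads in a library. Of 8 T cell markers all were in the table, and their summed normalised counts were 58932 to 59728 with NaCl and 66140.3 to 69078 with DAHB. Cd8a (log2 fold change 0.59), Cd8b1 (0.51) and Cd3g (0.13) rose, Trac (-0.31) and Cd3d (-0.20) fell, and Cd3e, Lck and Cd247 did not pass. Of 6 myeloid markers, all present, the sums were 527 to 1058 with NaCl and 965 to 1235 with DAHB. Lyz2 rose by 0.67 on the log2 scale, though its groups overlapped, and Adgre1 by 0.54. Csf1r, Itgam, Cd14 and Fcgr3 did not pass. Of 6 stroma and endothelium markers 5 were listed, with sums of 818 to 918 and 1496 to 1546, and Cdh5 was not. Most of this sum was Pecam1, which rose from 610 ± 36.1 to 1108 ± 36.3. Pdgfrb rose from 61.4 ± 2.32 to 195.4 ± 31.3, and Pdgfra, Col1a1 and Col1a2 did not pass. Of 4 CD4 T cell markers 3 were listed, with sums of 659 to 675 and 1561 to 1885, most of it Zbtb7b, and Foxp3 was not. Cd4 itself was at 6.24 to 18.8 with NaCl and at 54.2 to 72.4 with DAHB. Of 5 B cell markers only Cd79b was listed, at 118 to 149 and 549 to 623, and of 4 NK cell markers only Klre1, at 14.4 to 21.8 and 27.8 to 60.6. Of 5 dendritic cell markers 3 were listed, with sums of 465 to 532 and 348 to 358. Most of this sum was Zbtb46, which fell (log2 fold change -0.54), and Xcr1 did not pass. Itgax was called as higher (log2 fold change 1.47), but its groups overlapped, at 3.29 to 25.4 and 20.9 to 34.0. It reached the minimum of 10 counts in 3 libraries only through its DAHB libraries. Ms4a1, Cd79a, Pax5, Ncr1, Flt3 and Siglech had no row. No platelet or erythroid marker was listed. The part of such cells in the changes of Bmp7, Acvrl1, Ltbp3 and the other genes was not tested.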

How the data were processed

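Per the submitters' processing notes, the tools were Trimmomatic 0.36, STAR 2.5.2b, featureCounts 1.5.2 and DESeq2, and the build was GRCm38. The annotation, the strand setting and the DESeq2 version are not given in the sources used here, so sense and antisense reads at a locus cannot be told apart. The deposited signal of a gene is its read count over the size factor of the library. In each library 100% of values were whole multiples of 1 read (tolerance 0.001), from which read numbers and depth were recovered. The smallest gene in the table had 61 reads over the 6 libraries, so genes of low count are missing by a filter that the sources do not describe.

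Columns were matched to samples by library name. Replicate libraries were not alike within sampling noise (chi-square of 4.64 to 17.5 per degree of freedom). The 13804 genes that reached a normalised count of 10 in 3 or more libraries were tested with limma-trend (limma 3.58.1, R 4.3.3) on log2(normalised count + 1), two-sided, with Benjamini-Hochberg adjustment, and every adjusted p is from this fit unless another setting is named. Fold changes on this scale understate those of low genes, and all changes are relative to the average gene. The alternatives were other pseudocounts and filters, quantile normalisation, equal totals, a robust prior, the replicate block, each library left out, edgeR 4.0.16 and DESeq2 1.42.0 on whole reads and, added after seeing the data, a correction for GC content and length. The limma procedure was tested on simulated data. Coordinates and exon lengths (the union of all annotated exons) are from GENCODE M21 on GRCm38. Figures were made with matplotlib 3.10.9.

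The members and lists were chosen with earlier results of these data known. The genes named are the 9 members, the 3 genes nearest to the member with the largest rise and to that with the largest fall, and from each list up to 4 called genes, taken by size of change, whose higher group mean reached 100. Any other gene is said to be named after its value was seen or is a cell marker. A few genes that this rule takes are not reported here.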

Additional observations from a re-analysis of the deposited data

How the results depend on the processing

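The 5 calls among the 9 genes (Smad3, Tgfbr2 and Smad7 higher, Smad4 and Skil lower) kept their direction and passed in all 17 alternatives, and the count that rose was 5 under quantile normalisation, where Tgfb1 (0.10) and Ski (0.14) passed. Directions turned only in members that did not pass, namely Tgfb1 after the GC and length correction, which was added after seeing the data (-0.026), Smad2 under quantile normalisation (0.021) and Ski, which lay between -0.0091 and 0.087 with each library left out. Under quantile normalisation the log2 ratio differences were -0.88 for Tgfbr1 to Tgfbr2 and 0.99 for Smad3 to Smad2, and that of Smad7 to Smad2 plus Smad3 lay between -0.098 and 0.024 with each library left out. The causes were not tested. Same-numbered libraries did not deviate together (correlations -0.05, -0.15 and 0.04), but 3 such pairs cannot settle whether the numbers mark shared mice, cultures or batches. With the replicate block 3 members rose and 2 fell, 33 and 26 of the further pathway genes did, and 3931 and 3841 of all genes. On whole reads edgeR called 4126 genes as higher and 3958 as lower, against 4052 and 4019 by limma. The 3 NaCl and 3 DAHB libraries limit what can be seen, and exact tests of ratios cannot pass 0.05.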

Other observations

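Beyond the pathway lists, the table was searched by symbol, after the values above were seen, for ligands and extracellular antagonists of the TGF-beta superfamily. Bmp8b was at 4.49 ± 2.34 with NaCl and 58.0 ± 11.1 with DAHB (SD, n = 3), Bmp8a at 2.62 ± 1.63 and 20.5 ± 11.4, and Lefty1, which encodes a Nodal antagonist, at 3.14 ± 2.43 and 36.3 ± 1.93. These 3 reached the minimum of 10 counts only through their DAHB libraries, so their values are a description. Fstl3, of an activin-binding protein, rose from 15.9 ± 4.50 to 87.3 ± 14.4, while Fstl1 and Gdf15 did not pass. Twsg1, whose product binds BMPs outside the cell, was well expressed and rose from 2934 ± 9.88 to 3476 ± 189. The inhibitor of differentiation genes, classical readouts of BMP signalling through SMAD1 and SMAD5, were likewise looked up after values had been seen. The 3 that the table held all rose, where 29.4% of all genes tested did. Id1 went from 37.9 ± 14.0 to 189 ± 20.5, Id2 from 1229 ± 34.2 to 3790.4 ± 238 and Id3 from 3228 ± 67.8 to 4099.9 ± 61.3. Their log2 fold changes were 2.35, 1.62 and 0.34. In the same libraries Smad1 and Smad5 fell, and what lay behind the rise of the Id genes was not tested.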
